A study of Mus musculus with 12 samples.

Results

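The genes described here are the 3 retinoid X receptors (Rxra, Rxrb and Rxrg), the 3 retinoic acid receptors (Rara, Rarb and Rarg), the 3 enzymes that make retinoic acid (Aldh1a1, Aldh1a2 and Aldh1a3) and Cyp26b1, an enzyme that removes it. These 10 genes, of the 25700 that the count table lists, were chosen by name, and Rxrg was picked for its large rise in 1 of the sorted cell populations. For Rxrg, differences between the populations are therefore given as a description, with no test. All 10 were found in the table by their Ensembl mouse identifiers. Of these, 9 passed the filter on low counts and Cyp26b1 did not.

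The libraries came from Schwann cells (SCs) of postnatal day 5 (P5) sciatic nerves. All mice carried P0Cre, a Cre that acts in SCs, a ReYFP reporter that this Cre switches on (P0Cre-/+: ReYFP Tg/+) and a βAct-DsRed Tg/+ transgene that marks all cells. After enzymatic dissociation, eYFP+ cells were sorted by side scatter, a measure of granularity, into a gate of high scatter enriched for myelinating SCs (mSC), a gate of low scatter enriched for not-myelinating SCs (nmSC) and a gate that takes both clouds (allSC). There were 4 libraries per gate, each from the cell suspension of 1 mouse, and libraries of different gates with the same subject number in the labels were taken as coming from the same mouse. The gates enrich and do not purify, and in bulk RNA a smaller number of cells of a type and less RNA of a gene per cell cannot be told apart.

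Total counts ran from 10777161 to 16918122 in mSC, from 10092477 to 14482001 in allSC and from 8180927 to 13077387 in nmSC. The factors of the trimmed mean of M values (TMM) normalisation moved with the gate, from 0.744 to 0.871 in mSC, 0.986 to 1.03 in allSC and 1.16 to 1.28 in nmSC. With them the median log2 difference between nmSC and mSC over all 18597 tested genes was 0.16, and with library size alone it was 0.73, so changes are read against that median. The summed level of 6 myelin genes was 154000 to 212000 counts per 1000000 of the TMM-scaled library (CPM) in mSC and 17900 to 20500 CPM in nmSC, and that of the proliferation markers Mki67 and Top2a was 35.5 to 57.9 CPM in mSC and 472 to 607 CPM in nmSC. Sox10, the defining transcription factor of SCs, had a mean of 267 CPM in mSC, 267 in allSC and 266 in nmSC. The whole list of 6 SC markers, which includes myelin genes, summed to 27800 to 61000 CPM in mSC and 7900 to 10100 CPM in nmSC, with 2 of the 6 called higher and 3 lower in nmSC.

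Retinol enters cells, is held by small binding proteins and is oxidised to retinal and then, by the ALDH1A dehydrogenases, to retinoic acid. Retinoic acid binds the retinoic acid receptors, which sit on DNA as pairs with a retinoid X receptor. The retinoid X receptors also pair with receptors for oxysterols (LXR), fatty acids (PPAR), thyroid hormone and vitamin D, so that they serve many nuclear receptor pathways, and Rxrg has been studied in the glia of the central nervous system for a role in oligodendrocyte differentiation.

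RXR and RAR pairs bind repeats of the hexamer site AGGTCA. RefSeq promoter windows (GRCm38.p6, 250 bases before to 50 bases after a start site) were found for 9 of the 10 genes, 17 windows in all, with none for Aldh1a3. They were searched on both strands for the hexamer sites AGGTCA, also its variants AGTTCA, then GGTTCA as well as GGGTCA, plus direct repeats of any pair of these separated by 1, 2 or 5 bases. The windows printed here are both start sites of Rxrg, the gene that differed most between the gates, and the Rarb window, the only one of the 17 with such a direct repeat. Each reads 5′ to 3′ on the strand of the gene, and capitals mark the hexamer sites.
Rxrg, upstream start, chr1:167598112-167598411 (+): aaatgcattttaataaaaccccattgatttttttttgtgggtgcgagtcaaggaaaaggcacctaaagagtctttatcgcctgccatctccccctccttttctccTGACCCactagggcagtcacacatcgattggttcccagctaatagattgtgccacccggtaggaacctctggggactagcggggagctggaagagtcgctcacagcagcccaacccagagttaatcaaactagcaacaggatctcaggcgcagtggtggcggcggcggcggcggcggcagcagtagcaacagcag
Rxrg, downstream start, chr1:167618015-167618314 (+): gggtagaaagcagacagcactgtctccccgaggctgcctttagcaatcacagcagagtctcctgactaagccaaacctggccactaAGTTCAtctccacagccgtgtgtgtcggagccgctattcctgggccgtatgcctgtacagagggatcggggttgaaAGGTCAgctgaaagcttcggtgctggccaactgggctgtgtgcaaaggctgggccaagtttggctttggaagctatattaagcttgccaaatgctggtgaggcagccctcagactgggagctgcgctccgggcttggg
Rarb, chr14:16575427-16575726 (−): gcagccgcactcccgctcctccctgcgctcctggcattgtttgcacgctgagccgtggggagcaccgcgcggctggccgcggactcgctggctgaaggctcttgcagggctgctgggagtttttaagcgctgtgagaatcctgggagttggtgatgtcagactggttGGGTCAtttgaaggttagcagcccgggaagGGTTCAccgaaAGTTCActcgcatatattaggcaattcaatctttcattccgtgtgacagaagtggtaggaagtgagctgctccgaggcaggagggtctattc

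The Rarb window holds the direct repeat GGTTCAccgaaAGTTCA, with a spacer of 5 bases, from 53 to 37 bases upstream of the start, and a single GGGTCA that begins 83 bases upstream. A direct repeat with this spacer was present in 32 of all 32851 windows (0.0974%). The upstream Rxrg window holds 1 hexamer site, read on the other strand as TGACCC, that begins 145 bases upstream of the start. The downstream one holds AGTTCA and AGGTCA, which begin 164 and 88 bases upstream. Single hexamer sites were present in 43.7% of all windows, and the windows of Rxrg held none of the direct repeats searched. These matches describe letters only, and counts per gene do not separate reads from the 2 Rxrg start sites. The annotated Rarb gene, on the minus strand, extends upstream of its window to base 16819156 of chromosome 14. Counts of Rarb likewise do not separate reads from the start in this window and from starts further upstream.

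Rxrg (ENSMUSG00000015843, chr1:167598384-167639623, + strand, GRCm38) encodes RXR gamma, and its transcripts were scarce in mSC and plentiful in allSC and nmSC. In the mSC libraries of mice 1 to 4 it measured 1.29, 3.30, 2.33 and 3.87 CPM. In the nmSC libraries it measured 60.7, 85.2, 105 and 102 CPM. In the allSC libraries it measured 45.4, 55.2, 55.2 and 53.0 CPM.

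The 3 gates did not overlap, and every mouse gave the order mSC, allSC, nmSC. Behind these values stood 19 to 38 counts per mSC library against 633 to 1549 per nmSC library, so the mSC level lay above the 3 counts taken as the limit of detection. The mean rose from 2.70 ± 1.13 CPM (SD, n = 4) in mSC to 88.2 ± 20.3 CPM in nmSC. The fitted log2 difference was 5.09 (SE 0.26), which is 34.0-fold, and it was the highest of the 18597 tested genes. The next were Rtn4rl2 at 4.90 and Ifitm3 at 4.87. Within single mice the nmSC level was 47.1, 25.8, 45.1 and 26.4 times the mSC level.

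In mSC, Rxrg stood at 3.06% of its nmSC level. The same share was 5.36% for L1cam and 8.86% for Ncam1, adhesion molecules of immature SCs, 16.3% for the neurotrophin receptor gene Ngfr, and 8.72% and 8.79% for the proliferation markers Top2a and Mki67. Over the 3748 genes called higher in nmSC its median was 39.8%. The allSC mean of Rxrg, 52.2 ± 4.67 CPM, lay 57.9% of the way from mSC to nmSC, where the genes called higher had a median of 54.5% and quartiles of 43.1% and 66.9%. Against allSC the log2 difference of Rxrg was 0.76 in nmSC and -4.33 in mSC.

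Markers of other nerve cells were low or moved in several ways beside Rxrg. The summed level of 6 endothelial markers was 21.0 to 30.7 CPM in mSC and 8.82 to 16.3 CPM in nmSC. That of 6 immune markers was 14.5 to 23.6 and 20.9 to 30.3 CPM, and 4 of the 5 tested were not called. That of 6 fibroblast-like markers was 439 to 1040 CPM in mSC and 2920 to 4100 CPM in nmSC. Nearly all of it came from Col1a1 (787 and 3418 CPM), while Pdgfra, the surface marker of these cells, measured 2.34 CPM in both gates and Dcn 12.8 and 8.47 CPM. The sum over 6 perineurial markers was 137 to 217 CPM in mSC and 203 to 338 CPM in nmSC, and over 6 mural cell markers 99.0 to 200 and 55.9 to 93.9 CPM. Although their sum fell, 2 of 5 tested endothelial markers were called higher in nmSC and 1 lower (median log2 difference 1.12). Of 4 tested perineurial markers 3 were called higher and 1 lower, and of 6 mural cell markers 1 and 2. The immune and fibroblast-like lists gave 1 call each, higher in nmSC. Over all tested genes 40.5% were called. Markers of not-myelinating or immature SCs (Ngfr, Ncam1, L1cam and Cdkn1c) moved with Rxrg. Their sum was 128 to 207 CPM in mSC and 1220 to 1520 CPM in nmSC. Of these, the paper links Cdkn1c to pro-myelinating SCs. The part of all these cell types in the Rxrg values was not tested.

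**Figure D1:**
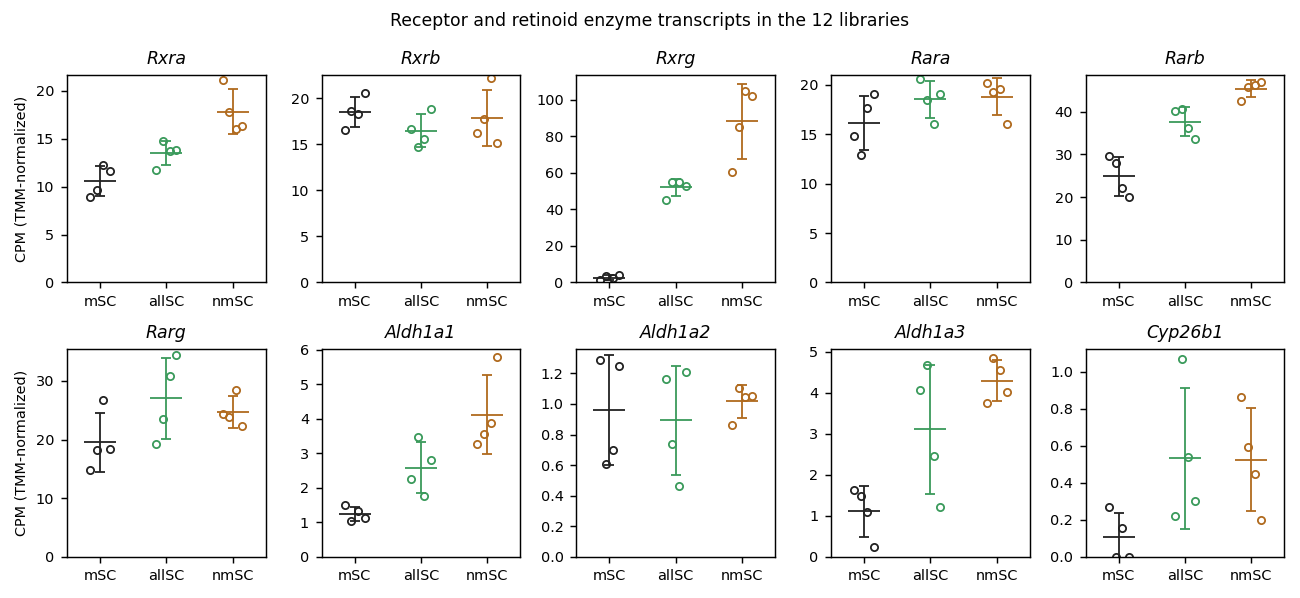
CPM of the 10 genes in each gate, with 1 panel and 1 linear axis per gene. Points are the 4 libraries of a gate, dashes their mean and bars the SD. Rxrg separates the 3 gates, from at most 3.87 CPM in mSC to at least 60.7 CPM in nmSC. The mSC and nmSC points of Rxrb, Rara, Rarg, Aldh1a2 and Cyp26b1 overlap.

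The other retinoid X receptors did not share this size of change. Rxra (chr2:27676440-27762957), which encodes RXR alpha, measured 8.96, 9.65, 12.3 and 11.6 CPM in the mSC libraries and 21.1, 17.8, 16.0 and 16.3 CPM in the nmSC libraries. The groups did not overlap, and the level was higher in nmSC in 4 of 4 mice. The log2 difference was 0.75 (SE 0.16), with an adjusted p of 0.000937 in edgeR's quasi-likelihood test over all genes. In mouse 1 the nmSC library was at once the highest for Rxra and the lowest for Rxrg of its gate.

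Rxrb (chr17:34031812-34038399), which encodes RXR beta, had the levels 16.6, 18.6, 18.3 and 20.6 CPM in mSC and 16.3, 17.7, 22.2 and 15.2 CPM in nmSC. These ranges overlap, and the log2 difference was -0.05 (SE 0.15, edgeR adjusted p 0.83). With library size alone it was 0.52 (adjusted p 0.00469), which is 0.21 below the median of all genes under that scaling.

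Levels of different genes were compared per length, as reads per kilobase of exon, scaled for depth like CPM (RPKM). In mSC, Rxrb was the leading retinoid X receptor at 4.66 RPKM, above Rxra at 1.94 and Rxrg at 1.17 RPKM. In nmSC the order was Rxrg at 38.4, Rxrb at 4.50 and Rxra at 3.26 RPKM. Rxrg thus made up 14.7% of the summed RXR level in mSC (8.81 to 18.7% over libraries), 77.4% in allSC (75.6 to 79.0%) and 82.7% in nmSC (76.8 to 86.7%), and Rxrb went from 60.3% in mSC to 9.92% in nmSC. The summed RXR level itself was 7.78 ± 1.08 RPKM in mSC, 29.4 ± 2.16 in allSC and 46.2 ± 8.78 in nmSC (SD, n = 4 each). As the rule picked Rxrg for its rise, these shares are a description.

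**Figure D2:**
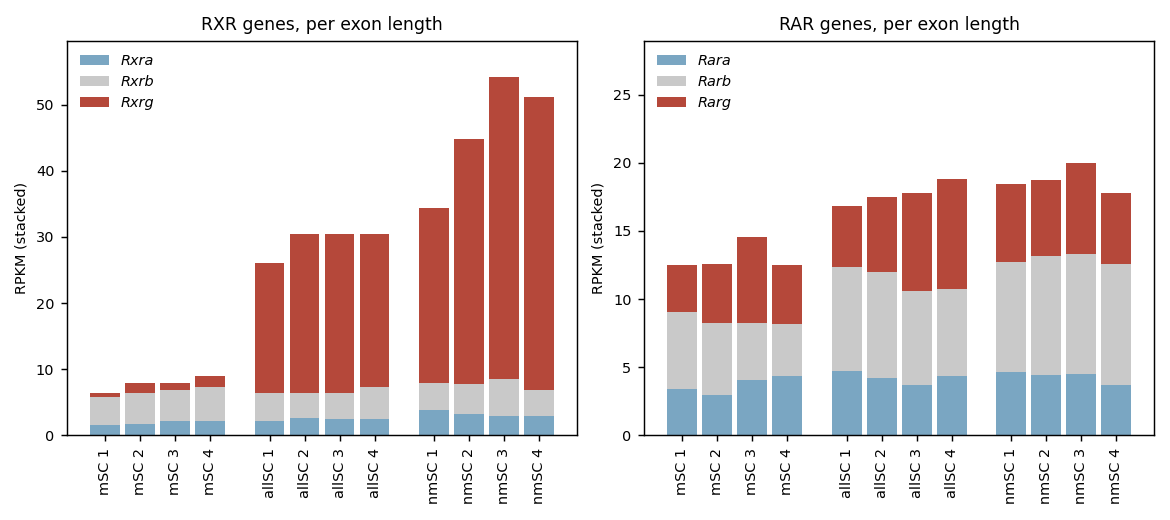
Stacked RPKM of the 3 RXR genes and the 3 RAR genes in each of the 12 libraries, with both axes starting at 0. Rxrg is the smallest part of all 4 mSC bars (mean 14.7% of the RXR sum) and most of every allSC and nmSC bar, while the RAR bars keep all 3 genes in every gate.

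Among the retinoic acid receptors, Rarb rose in nmSC, and Rara and Rarg did not pass the test. Rarb (chr14:16430839-16819156, − strand), which encodes RAR beta and is itself a known target of retinoic acid through a direct repeat in its promoter, measured 29.7, 27.9, 22.2 and 20.0 CPM in mSC. It measured 42.6, 45.9, 46.3 and 46.9 CPM in nmSC. Every nmSC library lay above every mSC library, and the log2 difference was 0.86 (SE 0.14, edgeR adjusted p 6.28e-05). The allSC level was 40.2, 40.7, 36.2 and 33.6 CPM. The log2 difference of mSC from allSC was -0.59 (edgeR adjusted p 0.00603), and that of nmSC from allSC was 0.27 (adjusted p 0.278). Exons of Rarb overlap those of Top2b and Gm48162 on the opposite strand, and whether the counting used strand is not stated. Top2b, a topoisomerase gene, was also called higher in nmSC, by 0.45 (adjusted p 0.0103), and its part in the Rarb counts was not tested.

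Rara (chr11:98927818-98974942), which encodes RAR alpha, gave 14.9, 13.0, 17.6 and 19.1 CPM in mSC and 20.2, 19.3, 19.6 and 16.1 CPM in nmSC. The log2 difference of 0.23 (SE 0.15) was not called (edgeR adjusted p 0.247). Rarg (chr15:102234938-102257517), which encodes RAR gamma, gave 14.8, 18.3, 26.7 and 18.3 CPM in mSC and 24.4, 23.8, 28.5 and 22.3 CPM in nmSC. Its log2 difference was 0.34 (SE 0.19, adjusted p 0.165). In the mSC library of mouse 3 Rarg lay inside the nmSC range, and without that library the difference was 0.52 and passed the threshold (adjusted p 0.0468).

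No single gene held most of the summed RAR level in any gate. Rarb held 36.7% of the summed RAR level in mSC, 40.5% in allSC and 46.1% in nmSC, Rarg 34.9, 35.5 and 30.9%, and Rara 28.4, 24.0 and 23.0%. The summed RAR level was 13.0 ± 1.01 RPKM in mSC, 17.8 ± 0.83 in allSC and 18.7 ± 0.905 in nmSC. In mSC the levels of Rarb (4.73 RPKM), Rxrb (4.66), Rarg (4.58) and Rara (3.70) overlapped from each to the next in the order. In nmSC Rxrg (38.4 ± 8.84 RPKM) and Rarb (8.63 ± 0.371) each stood clear of the next gene, whereas Rarg (5.80), Rxrb (4.50), Rara (4.31) and Rxra (3.26) overlapped from each to the next.

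The enzymes of retinoic acid synthesis had lower mean RPKM than every receptor in each gate, and Aldh1a1 and Aldh1a3 rose in nmSC. In the mSC libraries Aldh1a2 (0.27 to 0.57 RPKM) still overlapped Rxrg (0.56 to 1.68 RPKM). Aldh1a1 (chr19:20492715-20643465) measured 1.49, 1.04, 1.32 and 1.12 CPM in mSC and 3.26, 3.57, 3.88 and 5.79 CPM in nmSC. The groups did not overlap, and the log2 difference was 1.72 (SE 0.30, edgeR adjusted p 0.000159). Aldh1a3 (chr7:66390890-66427517, − strand) measured 1.63, 1.48, 1.09 and 0.250 CPM in mSC, the last from 2 counts, and 3.74, 4.84, 4.55 and 4.02 CPM in nmSC. Its log2 difference was 1.88 (SE 0.41, adjusted p 0.00119), again with no overlap. Aldh1a2 (chr9:71215789-71296243) had a mean of 0.961 ± 0.357 CPM in mSC and 1.02 ± 0.106 CPM in nmSC, a log2 difference of 0.09 (SE 0.42, adjusted p 0.874).

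Cyp26b1 (chr6:84571414-84593908, − strand), a cytochrome P450 that degrades retinoic acid, gave 4, 0, 2 and 0 counts in the mSC libraries of mice 1 to 4, 3, 16, 7 and 3 in allSC and 9, 7, 6 and 3 in nmSC. Its mean was 0.107 CPM in mSC, 0.532 in allSC and 0.526 in nmSC. In both mSC libraries with 0 counts, transcripts up to the limit of 3 counts were not detectable at this depth.

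A low level need not stand for transcription in SCs, so the members were set beside 1452 olfactory and vomeronasal receptor genes, which SCs are not known to use. Over these the 95th percentile of the gene means was 0.514 RPKM in mSC, 0.663 in allSC and 0.739 in nmSC. All 6 nuclear receptor genes lay above it in every gate. Aldh1a3 passed it in allSC (0.673 RPKM) and nmSC (0.928 RPKM), Aldh1a1 in nmSC alone (0.835 RPKM), and Aldh1a2 (0.424 RPKM in mSC, 0.449 in nmSC) and Cyp26b1 (0.0199 and 0.0982 RPKM) in no gate. The receptor genes of smell themselves had a median log2 difference of 0.72 over the 1012 tested, beside 0.16 over all tested genes. Of the 1012, 167 were called higher in nmSC, where 3748 of all 18597 tested genes (20.2%) were. The rise of Aldh1a1 and Aldh1a3 is to be read beside the median of 0.72. The part of this low signal in both rises was not tested.

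**Figure D3:**
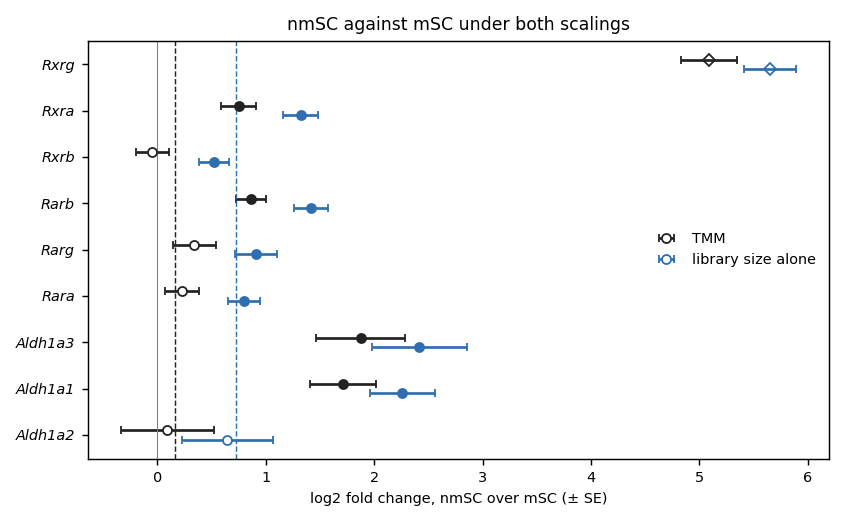
Log2 difference between nmSC and mSC for the 9 tested genes (bars, SE), under TMM scaling in black and library size alone in blue. Filled points had an adjusted p under 0.05, open points did not, the open diamond is Rxrg, which was not tested, and dashed lines are the medians of all tested genes at 0.16 and 0.73. Rxrg lies at 5.09 and the other genes between -0.05 and 1.88 under TMM scaling.

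Leaving Rxrg aside, 4 of the 8 tested members were called between nmSC and mSC, all higher in nmSC (Rxra, Rarb, Aldh1a1 and Aldh1a3), where 40.5% of all tested genes were called and 20.2% were called higher. The same 4 did not overlap between the gates, against 34.2% of all tested genes. The median log2 difference of the 8 was 0.55. With library size alone 7 of the 8 passed, all but Aldh1a2, where 11864 of all 18597 tested genes passed. Of all calls, 87.8% were then higher in nmSC in place of 49.7%. The nmSC and allSC gates, which share the not-myelinating cells, gave 0 calls among the 8 in edgeR's test, where 10.4% of all tested genes were called. There 2 of the 8 had an unadjusted p under 0.05 in edgeR's test, DESeq2 called 0, and library size alone called 3. Over all 18597 tested genes these counts were 3951, 2432 and 2951. The median log2 difference of the 8 was 0.24 beside 0.04 over all genes.

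Between mSC and allSC, 3 of the 8 were called, all lower in mSC (Rarb, Aldh1a1 and Aldh1a3), where 17.6% of all tested genes were called and 8.80% were called lower. Aldh1a1 fell by 1.03 on the log2 scale (edgeR adjusted p 0.0275) from 2.58 ± 0.735 CPM in allSC, and Aldh1a3 fell by 1.43 (adjusted p 0.0218) from 3.11 ± 1.57 CPM. Both calls were near the threshold. The Aldh1a1 call was lost without any 1 of the allSC libraries of mice 2 and 4 or the mSC libraries of mice 2, 3 and 4 (adjusted p up to 0.116), and the Aldh1a3 call without the allSC library of mouse 1 or 2 (0.0679 and 0.097) or the mSC library of mouse 3 (0.0547), and in a model of mSC and allSC alone (0.0604). These comparisons share the allSC libraries with each other and a gate each with that of nmSC and mSC.

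The wider retinoid pathway was described by 11 lists of genes, which hold 150 genes together, 127 of them tested. Between nmSC and mSC 52 were called, 27 higher and 25 lower in nmSC, which is 40.9% and close to the 40.5% of all tested genes. Their median log2 difference was 0.14 beside 0.16 over all genes. Of all 18597 tested genes 3748 (20.2%) were called higher and 3792 lower in nmSC, the reference for the counts of each list below. Single lists differed in direction. They were chosen with earlier results of these data known, so their counts are a description.

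Of the genes of retinoid uptake, binding and storage, 4 of 11 tested rose in nmSC and 1 fell, with a median of 0.77. Crabp1, a binding protein for retinoic acid itself, rose from 0.470 CPM in mSC to 3.80 CPM in nmSC (log2 difference 3.10, edgeR adjusted p 3.81e-06). Stra6l, a relative of the retinol transporter gene Stra6, rose by 1.15 at a low level of 1.52 and 3.47 CPM (adjusted p 0.0157), a call that was lost without the nmSC library of mouse 2 (0.0561). Fabp5, which can carry retinoic acid and fatty acids, measured 98.8 and 85.4 CPM (adjusted p 0.458).

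The enzymes that interconvert retinol and retinal split, with 5 of 19 higher and 3 lower in nmSC and a median of 0.40. Rdh11, a retinal reductase, fell from 145 to 67.1 CPM (-1.10, edgeR adjusted p 1.93e-06), Rdh14 from 50.5 to 19.1 CPM (-1.40, adjusted p 5.63e-08) and the alcohol and formaldehyde dehydrogenase gene Adh5 from 174 to 113 CPM (-0.62, adjusted p 0.00367). Dhrs3, a retinal reductase that is induced by retinoic acid, rose from 37.4 to 62.4 CPM (0.74, adjusted p 0.000174), and the aldo-keto reductase gene Akr1b8 from 3.90 to 9.63 CPM (1.31). Rdh1, Rdh7 and Adh7 were also called higher, with nmSC means of 1.41, 1.26 and 1.84 CPM. Exons of Rdh1 overlap those of Rdh16f1 on the same strand, and exons of Adh7 overlap a gene on the opposite strand. How reads shared between genes were counted is not stated. The Rdh1 call was lost without the mSC library of mouse 3 (adjusted p 0.0525). Of the clearance enzymes, 1 of 4 was tested, Cyp2s1, at 0.588 and 1.08 CPM (adjusted p 0.257), which passed without the mSC library of mouse 2 (1.71, adjusted p 0.0368). Stra6l, Rdh1, Adh7 and Cyp2s1 lay below the 95th percentile of the olfactory and vomeronasal genes in every gate.

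Of the receptors that pair with RXR, 4 of 12 were lower in nmSC and 1 was higher, with a median of -0.40. The nuclear receptor genes Nr4a1 and Nr4a2 are immediate early genes whose products can pair with RXR. Nr4a2 fell from 224 ± 28.8 CPM in mSC to 69.4 ± 6.65 CPM in nmSC (-1.69, edgeR adjusted p 4.71e-09) whereas Nr4a1 rose from 394 ± 186 to 776 ± 100 CPM (0.98, adjusted p 0.00242). Nr1i3, the xenobiotic receptor CAR, fell from 48.4 to 23.2 CPM (-1.06, adjusted p 7.76e-06), although its exons overlap those of Tomm40l on the opposite strand. Among the corepressors 2 of 10 rose and 1 fell (median 0.25), with Hdac3, their histone deacetylase, at 152 and 119 CPM (-0.35, adjusted p 0.0316) and Tbl1x at 96.4 and 87.1 CPM (adjusted p 0.314). The Hdac3 call was lost without the nmSC library of mouse 1 (adjusted p 0.0979), and also without the nmSC library of mouse 2 or the mSC library of mouse 1. Of 14 coactivators 2 rose and 2 fell (median -0.01), and the most abundant of them, Med1 and Kat2a, did not pass the test.

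Of the genes known to respond to retinoic acid, 6 of 14 tested rose in nmSC and 1 fell, with a median of 0.76. Over all tested genes 20.2% were called higher, 40.5% were called either way and the median was 0.16. The 6 include Rarb and Dhrs3, which are also described above. Egr1, an immediate early gene that many stimuli induce, rose from 103 ± 34.3 to 394 ± 81.8 CPM (1.94, edgeR adjusted p 3.39e-07), and the homeobox gene Meis2 rose from 2.28 to 4.88 CPM (1.13, adjusted p 0.00344). Meis2 lay below the 95th percentile of the olfactory and vomeronasal genes in every gate. Meis1 rose by 0.56 and Tgm2, a transglutaminase, fell by 0.95 on the log2 scale.

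Genes that respond to LXR, a partner of RXR that senses oxysterols, were lower in 5 and higher in 2 of 12, with a median of -0.30. The desaturase genes Scd1 and Scd2, which sterol regulatory factors also drive, fell from 919 to 83.8 CPM (-3.45, edgeR adjusted p 1.39e-11) and from 6046 to 1310 CPM (-2.20, adjusted p 3.12e-08). The cholesterol exporter gene Abcg1 fell from 49.3 to 7.21 CPM (-2.77) and Lpcat3 by 1.28. Apoe, the lipid carrier, rose from 186 to 510 CPM (1.46, adjusted p 3.73e-06), and Arl4c from 0.461 to 3.05 CPM (2.73), below the 95th percentile of the olfactory and vomeronasal genes in every gate.

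Genes that respond to PPAR gave 2 higher and 4 lower of 11, with a median of -0.33. Ucp2, a mitochondrial carrier gene, fell from 596 to 222 CPM (-1.42, edgeR adjusted p 1.81e-07), while Pdk4, a kinase gene of pyruvate metabolism, rose from 2.59 to 5.90 CPM (1.18, adjusted p 0.014). Among genes of thyroid hormone response 1 of 4 was called, the clock output gene Dbp, which fell from 41.1 to 10.8 CPM (-1.92). Klf9 (37.5 and 36.8 CPM) and Klf13 (267 and 337 CPM) did not pass, but without the mSC library of mouse 4 Klf13 did (0.63, adjusted p 0.000439). Of 25 orphan and other nuclear receptors 5 rose and 3 fell (median 0.35). Nr2f2, which encodes COUP-TFII and can itself pair with RXR, rose from 44.6 ± 12.9 to 122 ± 16.1 CPM (1.46, adjusted p 1.35e-06). Nr2e3 rose at an nmSC mean of 1.06 CPM, Nr4a3 fell from 7.97 to 2.32 CPM, and Nr1d2 measured 66.6 and 53.2 CPM with no call (adjusted p 0.202), although it was called lower without the mSC library of mouse 4 (adjusted p 0.00736). Nr2e3 lay below the 95th percentile of the olfactory and vomeronasal genes in every gate. The exons of Ucp2, Dbp, Nr2f2 and Lpcat3 overlap genes on the opposite strand. So do those of Meis1 and Tgm2, and the exons of Meis1 and Scd2 also overlap a gene on the same strand.

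**Figure D4:**
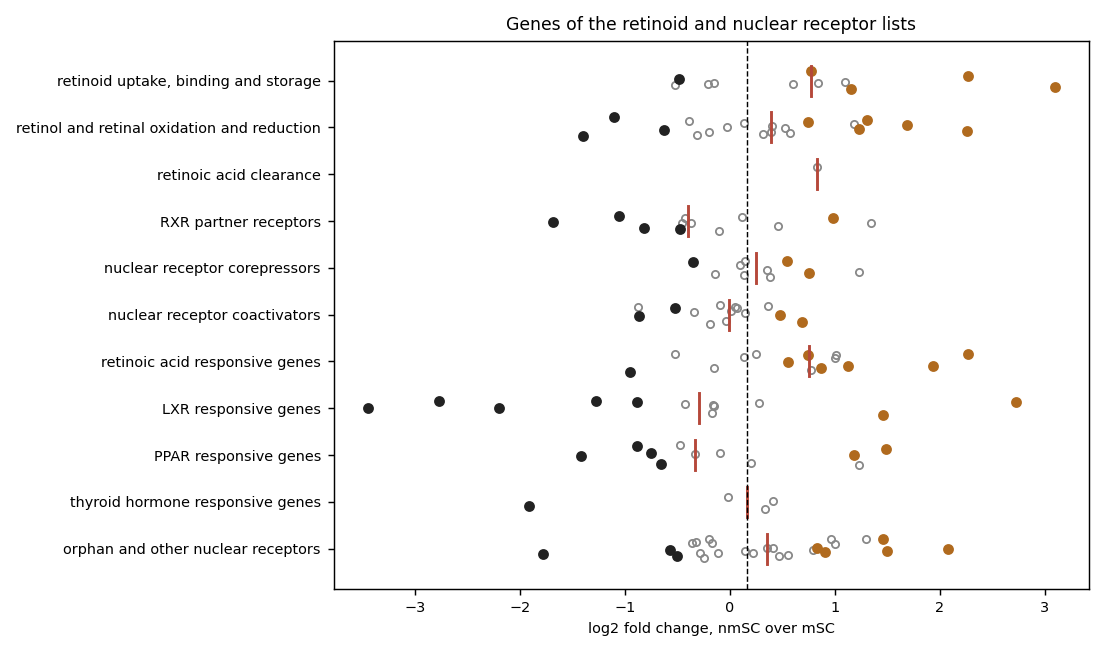
Log2 difference between nmSC and mSC of each tested gene of the 11 lists. Orange points were called higher and black points lower in nmSC, open points were not called, red bars are list medians and the dashed line is the median of all tested genes (0.16). List medians run from -0.40 for the RXR partners to 0.83 for the single tested clearance gene, and every list with more than 4 tested genes holds calls in both directions.

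The genes whose levels followed Rxrg most closely were sought among the 9399 tested genes with a mean of at least 10 CPM, by Pearson's r of log2(CPM + 1) over the 12 libraries. Racgap1 (r 0.997), Entpd2 (0.995), Arhgap11a (0.994), Lgr5 (0.994) and Casp12 (0.993) led. With library size alone 3 of these 5 were again among the 5 likest genes, and by Spearman's rho 0 were. These libraries share their gates and their mice, and r is given as a description. Racgap1 and Arhgap11a encode GTPase regulators that act in cell division, Entpd2 an ectonucleotidase, Lgr5 a receptor for R-spondins and Casp12 a caspase. With the gate means removed, the same r was 0.89, 0.83, 0.80, 0.74 and 0.70. As these 5 genes were picked by r over the same libraries, and no such r is given for the other genes, these values have no reference. The median r over all compared genes was -0.31, and 20 genes exceeded 0.99, so that the first 5 stand in a crowded order. The r was 0.984 for Mki67, 0.983 for Ncam1, 0.966 for L1cam and 0.949 for Ngfr.

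In level these genes spanned a wide range. Racgap1 went from 15.6 ± 4.09 CPM in mSC to 178 ± 29.6 CPM in nmSC (log2 difference 3.53). Entpd2 went from 18.4 ± 5.90 to 340 ± 79.5 CPM (4.22) and Arhgap11a from 3.01 ± 0.651 to 34.8 ± 2.94 CPM (3.56). The 5.09 of Rxrg was the highest of all tested genes, so every other gene lies below it.

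**Figure D5:**
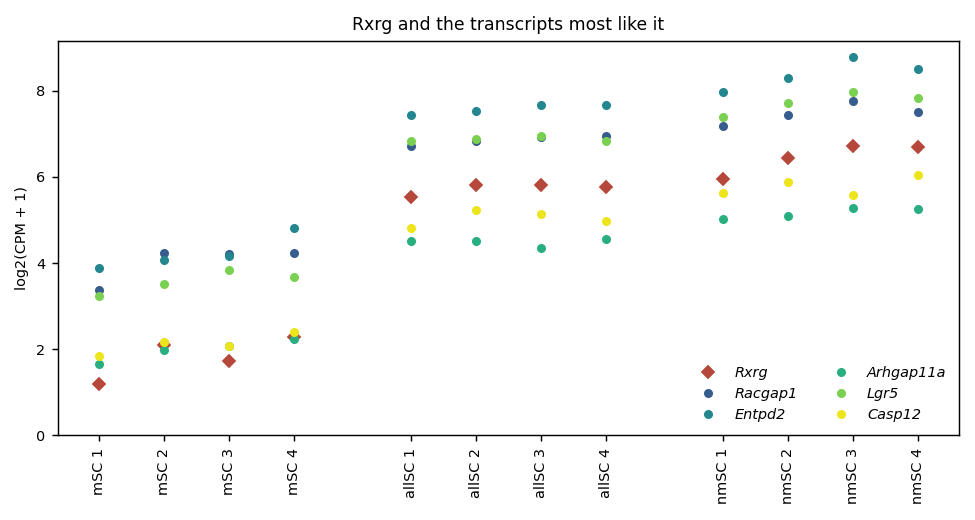
Log2(CPM + 1) of Rxrg (diamonds) and the 5 genes most like it (circles) in the 12 libraries, ordered by gate. All 6 genes are lowest in the 4 mSC libraries and step up together to allSC and nmSC.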

How the data were processed

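RNA of SCs from the 3 gates was sequenced by Smart-Seq2 without molecular identifiers. The authors trimmed reads, aligned them with STAR 2.6.1c, counted them per gene with featureCounts and deposited raw counts. The submitters' processing notes name GRCm38.p5, while the methods name a human build. The identifiers are those of mouse. Options for strand, multi-mapping and overlapping genes are not given in the sources used here.

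From the deposited counts, genes were filtered by gate with filterByExpr, scaled by TMM and compared with the quasi-likelihood test of edgeR 4.0.16 (R 4.3.3) in 1 model over the 12 libraries. P-values were adjusted by the Benjamini-Hochberg method over all 18597 tested genes, with a threshold of 0.05. RPKM used the TMM-scaled library size and the union of exons of GENCODE M21, which held 25664 of the 25700 identifiers. The test was tried on simulated counts first. No libraries of a gate were duplicates (chi-square per degree of freedom 4.03 to 95.7). Equal numbers mark the same subject in the labels, taken here as the same mouse, and the correlations of their deviations from the gate means over the 12 pairs ran from -0.225 to 0.246. The paper states that each gate held equal numbers of samples from male and female mice. It also reports that the samples of a gate grouped in pairs by sex. The labels do not say which mice were male, so sex was not used, and its part in the spread within gates was not tested.

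The members and lists were chosen with earlier results of these data known. Named genes are the members, the 5 genes most like Rxrg, the list genes called with at least a 2-fold difference or among the 2 most abundant of a list, and markers. Some genes that this rule names are not reported here. Top2b, Rtn4rl2, Ifitm3, Meis1 and Tgm2 are named outside this rule, after their values were seen, and the olfactory and vomeronasal genes were also taken up after seeing the data. Alternatives were other size factors, no filter, DESeq2 1.42.0, the mouse as a block, only the gates compared, other gene lengths and leaving out each library. Limits of 3 counts (0.197 to 0.374 CPM) cover counting error only, as PCR copies are not independent.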

Additional observations from a re-analysis of the deposited data

How the results depend on the processing

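The calls of Rxra, Rarb, Aldh1a1 and Aldh1a3 between nmSC and mSC were kept under every alternative run. Library size alone moved most counts, to 11864 genes between nmSC and mSC, 2951 between nmSC and allSC, 7 members between nmSC and mSC, 9 member calls against allSC over both contrasts (from 3), 84 list genes (from 52) and 3 of the 5 genes most like Rxrg, and the log2 difference of Rxrg to 5.65. It turned the sign of Rxrb between nmSC and mSC (0.52) and between mSC and allSC (-0.15), Rarg between nmSC and allSC (0.14), Aldh1a2 between mSC and allSC (-0.19), and Med1 (0.38), Nr1d2 (0.22), Hdac3 (0.22), Tbl1x (0.42), Fabp5 (0.40) and Klf9 (0.57) between nmSC and mSC, with the median of all genes at 0.73. In a model of only nmSC and allSC, 2899 genes were called, and by Spearman's rho 0 of the 5 likest genes were shared. With the mouse as a replicate block 7173 genes were called between nmSC and mSC, no call of a member changed, and Klf9 was at 0.0029. The causes were not tested.

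Leaving out single libraries gave 6174 to 7990 genes called between nmSC and mSC, 1344 to 1706 between nmSC and allSC, 2205 to 4204 between mSC and allSC, 4 to 5 members between nmSC and mSC, 1 to 3 member calls against allSC (1 without the allSC library of mouse 2), 45 to 58 list genes, and 4.81 to 5.28 for Rxrg. Differences near 0 changed sign. Between nmSC and mSC these were Rxrb (-0.18 to 0.019), Aldh1a2 (-0.087 to 0.28), Fabp5 (-0.41 to 0.10) and Klf9 (-0.15 to 0.16). Between nmSC and allSC they were Rxrb (-0.0083 to 0.19), Rara (-0.048 to 0.084), Rarg (-0.26 to 0.011) and Aldh1a2 (-0.013 to 0.37), and between mSC and allSC Aldh1a2 (-0.099 to 0.30). Libraries with under 3 counts of a gene, such as 3 of the 4 mSC libraries for Cyp26b1, are below the limit of detection.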

Other observations

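Both outer gates were also set against allSC. Of the 12 LXR responsive genes, 5 were higher and 2 lower in mSC than in allSC, with a median log2 difference of 0.34, and 1 was higher and 4 lower in nmSC than in allSC, with a median of -0.18. Of the 14 tested retinoic acid responsive genes, 1 was higher and 3 lower in mSC than in allSC (median -0.48), and 2 were higher and 1 lower in nmSC (median 0.36). The 10 corepressor and 14 coactivator genes gave 1 edgeR call in these contrasts, a coactivator that was higher in nmSC. These contrasts share the allSC libraries, and over all tested genes 17.6% were called between mSC and allSC and 10.4% between nmSC and allSC.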
